A study of Mus musculus with 16 samples.

Results

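Adipokines are proteins that adipose tissue releases to act elsewhere in the body. The 7 genes described here are the classical ones: Adipoq, Lep, Retn, Rbp4, Cfd, Nampt and Apln. They were chosen by name from the RefSeq accession that the array design gives for each probe, and the brightest probe over all arrays stands for a gene. All 7 were found among the 22911 gene symbols on the array, and all 7 probes were well above background on all 16 arrays.

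Most of these hormones come from the adipocyte itself. Adipoq encodes adiponectin, a collagen-like hormone that sensitizes liver and muscle to insulin and acts through the receptors Adipor1 and Adipor2 and through T-cadherin (Cdh13). Lep encodes leptin, the satiety hormone that reports fat stores to the brain, and Retn encodes resistin, which in mice is made by white adipocytes. Rbp4 carries retinol in blood, Cfd (adipsin) is the protease that starts the alternative complement pathway, Nampt makes the precursor of NAD inside cells and is also released, and Apln encodes apelin, the peptide ligand of Aplnr.

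Brown adipose tissue (BAT) and gonadal white adipose tissue (gWAT) of male C57BL/6NCrSlc mice kept at 23 °C were profiled on 1-colour Agilent arrays. In Adipo-Pgam1 KO mice, floxed Pgam1, a glycolytic enzyme gene, is deleted by a Cre recombinase that the Adipoq promoter drives, so the deletion is aimed at the adipocytes of both depots. The littermate controls are called wild-type in the labels and carry Pgam1 flox/flox without Cre according to the study's methods. Each tissue and genotype has 4 arrays, at 16 weeks of age except replicate 4 of the Adipo-Pgam1 KO group in both tissues, which is 14 weeks. The labels speak of independent samples but do not tie the BAT and gWAT arrays to one animal.

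The 75th percentile of signal, to which each array was scaled, lay between 401.3 and 916.2. In BAT it differed with the genotype, at 401.3 to 451.3 in controls and 650.2 to 916.2 in Adipo-Pgam1 KO mice. In gWAT it was 570.3 to 855.3 in controls and 656.8 to 831.3 in the arrays labelled Adipo-Pgam1 KO. At most 62.2% of the probes of an array passed the scanner software's test of being well above background. Levels below are log2 of the signal over that percentile, so a difference of 1 is a 2-fold difference, and no level is compared between genes. Pgam1 itself was 3.35-fold lower in BAT of Adipo-Pgam1 KO mice (log2 change -1.74, standard error 0.11), whereas gWAT labelled Adipo-Pgam1 KO had 1.93-fold more of it than gWAT controls (0.95, standard error 0.19, adjusted p = 0.0139 in limma). The former are called labelled KO gWAT here, and every direction in gWAT rests on that label. BAT of the knockout mice is called KO BAT. The arrays lay on 3 slides. In both tissues 3 controls were on another slide than all 4 Adipo-Pgam1 KO arrays, so the comparison within a slide rests on a single control array. Ucp1, the defining brown adipocyte gene, was well above background on all BAT arrays, on 0 of 4 gWAT control arrays and on 3 of 4 labelled KO gWAT arrays. All 10 genes of the adipocyte marker list were well above background on every array of both tissues.

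The promoters of 4 of the adipokines are shown because they bear on the design and on the results: that of Adipoq is the one that drives the Cre, those of Rbp4 and Cfd belong to the members with the largest changes, and that of Lep belongs to the member that moved least of the adipocyte hormones in BAT. Each window runs from 250 bases before to 50 bases after the RefSeq start of the gene on GRCm38.p6 and is written 5′ to 3′ on the strand of the gene, with matches to the searched motifs in capitals. They lie at chr16:23146286-23146585 (plus strand, Adipoq), chr6:29059971-29060270 (plus strand, Lep), chr19:38124762-38125061 (minus strand, Rbp4) and chr10:79890603-79890902 (plus strand, Cfd).
Adipoq: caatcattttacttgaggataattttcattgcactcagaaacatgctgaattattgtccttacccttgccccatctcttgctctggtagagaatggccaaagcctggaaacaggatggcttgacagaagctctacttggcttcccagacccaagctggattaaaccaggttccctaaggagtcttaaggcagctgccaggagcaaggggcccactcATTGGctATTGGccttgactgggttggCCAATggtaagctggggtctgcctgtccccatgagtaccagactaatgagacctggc
Lep: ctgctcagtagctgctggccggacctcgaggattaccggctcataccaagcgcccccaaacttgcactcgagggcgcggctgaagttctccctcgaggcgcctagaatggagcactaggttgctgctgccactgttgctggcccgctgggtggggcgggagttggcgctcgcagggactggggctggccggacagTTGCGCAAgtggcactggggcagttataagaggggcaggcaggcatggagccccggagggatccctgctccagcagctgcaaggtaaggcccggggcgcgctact
Rbp4: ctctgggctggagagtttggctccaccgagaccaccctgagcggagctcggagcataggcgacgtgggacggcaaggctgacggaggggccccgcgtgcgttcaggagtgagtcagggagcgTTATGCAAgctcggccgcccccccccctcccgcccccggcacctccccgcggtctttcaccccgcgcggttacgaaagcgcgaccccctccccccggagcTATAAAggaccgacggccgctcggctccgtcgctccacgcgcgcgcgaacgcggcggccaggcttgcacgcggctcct
Cfd: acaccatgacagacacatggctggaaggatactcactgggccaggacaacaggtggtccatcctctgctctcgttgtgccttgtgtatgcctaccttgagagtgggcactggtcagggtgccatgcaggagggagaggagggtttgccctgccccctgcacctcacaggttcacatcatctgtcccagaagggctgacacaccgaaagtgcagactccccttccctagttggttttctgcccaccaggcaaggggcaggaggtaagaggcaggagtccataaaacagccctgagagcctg

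Motifs were searched on both strands. The Adipoq window holds CCAAT 3 times, at positions -34 and -27 on the reverse strand (read as ATTGG) and at -7 on the strand shown, a motif found in 37.4% of all 32851 promoter windows of this length. The Lep window holds TTGCNNAA, the C/EBP-type motif, at position -55 on both strands, and 10.8% of all windows hold it. The Rbp4 window shown holds TTGCNNAA at -128 and TATAAA at -28, the latter found in 13.6% of windows, while the second RefSeq start of Rbp4, at chr19:38125272-38125571, has CCAAT at -162. The Cfd window holds none of the motifs. The same was true of the windows of Retn (chr8:3655520-3655819) and Apln (chrX:48034804-48035103), and Nampt (chr12:32820085-32820384) had only AGGTCA, the nuclear receptor site found in 16.3% of windows, at -151. AGGTCA repeated after a gap of 1 base, the site of PPARγ with its partner RXR, was in none of the members' windows and in 0.04% of all windows. A match describes the letters of the window and not a bound site.

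In BAT, the adipokines were lower in KO mice than in their littermates. Cfd fell 12.8-fold and Rbp4 11.8-fold, Adipoq 4.01-fold, Nampt 3.07-fold and Lep 1.36-fold, whereas Retn and Apln did not pass the test. Thus 5 of 7 members were called lower, and the median log2 change of the 7 was -1.62, beside -0.08 over all genes tested. Of all 14280 genes tested in BAT, 34.0% were called lower and 27.5% higher (limma, Benjamini-Hochberg adjusted p under 0.05). The groups did not overlap for the same 5 members, beside 32.0% of all genes with all KO arrays below all controls.

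In gWAT, Rbp4 was 4.54-fold, Retn 1.93-fold and Adipoq 1.85-fold lower in the labelled KO arrays. Lep, Cfd, Nampt and Apln did not pass the test. The median of the 7 changes was -0.83, beside 0.05 over all genes tested. Of the 14149 genes tested, 7.85% were called lower and 9.99% higher. With the groups not overlapping, 4 of 7 members were lower, those called and Lep, beside 10.8% of all genes.

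Markers of adipocytes and of other cells moved with the genotype in BAT. The summed level of the 10 adipocyte markers ran from 3430 to 3750 times the 75th percentile in BAT controls and from 1400 to 1880 in KO BAT, with all 10 markers called lower (median log2 change -1.05). Macrophage markers rose, with 9 of 10 called higher and a sum of 112 to 161 against 31.7 to 44.4 in controls, and so did 7 of 8 fibroblast and progenitor markers. The summed skeletal muscle markers, at 2.86 to 4.66 in BAT controls, ran from 2.75 to 117 in KO BAT, and 2 of 6 tested, Acta1 (3.11) and Tnni2 (4.05), were called higher. In gWAT the muscle sums were 4.27 to 25.6 in controls and 30.6 to 58.9 in the labelled KO arrays, where 0 of 7 muscle markers were called (limma, with 1 higher at an unadjusted p under 0.05, and 0 by the methods' t-test). Of 10 brown adipocyte markers, 7 were called lower in KO BAT (median -1.09). In gWAT, 0 of 10 adipocyte markers passed the test in either direction (limma, with 1 lower at an unadjusted p under 0.05, and 0 by the methods' t-test, median log2 change -0.12, sums of 2240 to 3360 in controls and 2160 to 2890 in the labelled KO arrays), and 1 of 10 macrophage markers was higher. Brown adipocyte markers were called higher in gWAT for 4 of the 7 that could be tested, and their sum was 127 to 330 against 27.0 to 62.6 in controls. Of 6 white depot markers tested, 2 were called lower, Nnat (-3.10) and Agt (-2.10), and their sum was 33.7 to 55.1 against 105 to 200. With the slide as a block, fewer brown, white depot and macrophage markers in gWAT and fewer muscle markers in BAT were called. In each tissue only 1 control array shares a slide with the arrays labelled KO. In RNA of bulk tissue, fewer adipocytes and less of an mRNA per adipocyte cannot be told apart, and the part of these markers in the adipokine results was not tested beyond the values that follow.

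Relative to the mean of the adipocyte markers on the same array, a scaling chosen after the data were seen, BAT still had lower Cfd (log2 change -2.57), Rbp4 (-2.44), Adipoq (-0.89) and Nampt (-0.50, adjusted p = 0.0221). These 4 members thus fell by more than the marker mean did. Retn stood at -0.01 on this scale (adjusted p = 0.984). Lep turned to 0.67 (adjusted p = 0.00435), below the median of all genes, which was 1.04 on this scale. In gWAT the same scaling left Adipoq at -0.82, Retn at -0.88 and Rbp4 at -2.12, all called.

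**Figure D1:**
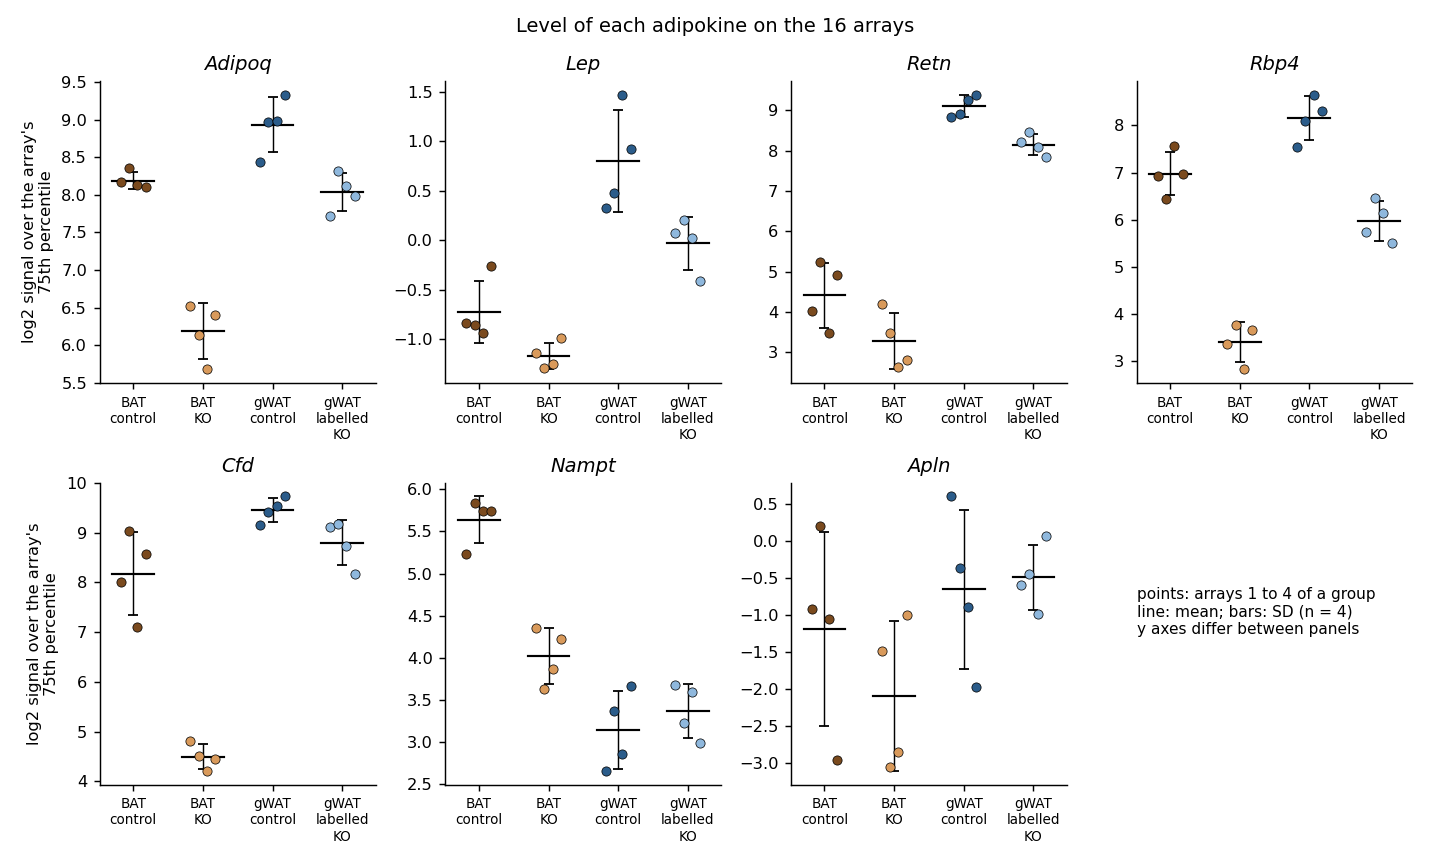
Level of each adipokine on every array (log2 signal over the array's 75th percentile, y axes differ between panels), by tissue and genotype, with the mean and SD of 4 arrays. In BAT, the KO arrays lie below all controls for Adipoq, Lep, Rbp4, Cfd and Nampt, and in gWAT the labelled KO arrays do so for Adipoq, Lep, Retn and Rbp4.

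Adipoq, measured by probe A_51_P458451, is the gene whose promoter drives the Cre. In BAT controls it stood at 8.17, 8.35, 8.13 and 8.10 on the 4 arrays, and in KO BAT at 6.52, 6.13, 5.68 and 6.40. The groups lay far apart, with a spread of 0.25 among the controls. The change was -2.005 (standard error 0.18, 95% confidence interval -2.42 to -1.59, adjusted p = 3.58e-05 in limma). In gWAT the controls stood at 8.44, 8.97, 8.98 and 9.33 and the labelled KO arrays at 7.72, 8.32, 8.12 and 7.99. The lowest gWAT control and the highest labelled KO array differed by little, but the groups did not overlap. The change in gWAT was -0.89 (standard error 0.21, adjusted p = 0.0235). This call was lost without gWAT control 2 (adjusted p = 0.0609), control 3 (0.0558), labelled KO array 1 (0.0641) or labelled KO array 3 (0.0567), and with spike-in scaling the change was -0.43 (adjusted p = 0.116).

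Rbp4, the retinol carrier, had the largest change of the members in gWAT and the next largest in BAT (probe A_51_P374752). The BAT controls read 6.93, 6.44, 7.56 and 6.96 and the KO BAT arrays 3.37, 3.77, 2.83 and 3.66. The lowest control (6.44) was far above the highest KO array (3.77). The change was -3.56 (standard error 0.27, adjusted p = 1.86e-05). In gWAT the controls stood at 7.54, 8.10, 8.65 and 8.31 and the labelled KO arrays at 5.75, 6.46, 6.15 and 5.50, again without overlap. That change was -2.18 (standard error 0.28, 95% confidence interval -2.82 to -1.55, adjusted p = 0.003). Among the members it had the largest change in gWAT under each of the scalings tried, from -2.51 to -1.72.

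Cfd, the complement protease adipsin, had the largest fall in BAT and did not pass the test in gWAT. Probe A_51_P156955 read 8.01, 9.03, 7.10 and 8.57 in BAT controls and 4.82, 4.51, 4.21 and 4.44 in KO BAT. The controls spread over 1.94 and the KO arrays over 0.61, and the lowest control was still well above the highest KO array. The change was -3.68 (standard error 0.37, adjusted p = 6.22e-05). In gWAT the controls stood at 9.16, 9.42, 9.53 and 9.73 and the labelled KO arrays at 9.11, 9.17, 8.74 and 8.18, which overlap slightly. The gWAT change of -0.66 (standard error 0.23) did not pass the test (adjusted p = 0.0821). The second Cfd probe, A_55_P2744246, moved by -3.74 in BAT and by -0.85 in gWAT, and on it the gWAT groups did not overlap (p = 0.0286 in a two-sided exact permutation test, as small as 4 arrays against 4 can give).

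Nampt, the rate-limiting enzyme of NAD salvage, fell in BAT and did not pass the test in gWAT. Probe A_51_P387235 read 5.23, 5.84, 5.74 and 5.74 in BAT controls and 4.36, 3.63, 3.87 and 4.22 in KO BAT, without overlap. The change was -1.62 (standard error 0.20, adjusted p = 0.000151). In gWAT the controls stood at 2.66, 3.37, 2.86 and 3.67 and the labelled KO arrays at 3.68, 3.23, 3.59 and 2.99. These ranges largely coincide, and the difference of 0.23 (95% confidence interval -0.34 to 0.81) did not pass the test (adjusted p = 0.551). With spike-in scaling it was 0.69 (adjusted p = 0.0255), where the median of all genes also moved, to 0.51.

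Retn, encoding resistin, scattered widely between arrays in BAT (probe A_55_P1984806). The BAT controls read 4.03, 5.24, 3.47 and 4.91, and the KO arrays 4.19, 3.48, 2.65 and 2.82. The highest KO array lay above 2 of the controls, and the difference of -1.13 (standard error 0.46) did not pass the test (adjusted p = 0.0578). It passed without BAT control 3 (adjusted p = 0.0218) or KO array 1 (0.0251). In gWAT, where Retn is far brighter, the controls stood at 8.83, 8.91, 9.27 and 9.39 and the labelled KO arrays at 8.21, 8.46, 8.09 and 7.85. These groups did not overlap, and the change was -0.95 (standard error 0.18, adjusted p = 0.013). The second probe of Retn gave -1.0 in BAT and -0.75 in gWAT.

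Lep, encoding leptin, was well above background on all 16 arrays (probe A_66_P113053). The BAT controls read -0.83, -0.86, -0.94 and -0.26 and the KO arrays -1.14, -1.29, -1.25 and -0.99. Array 4 of the controls, which shared its slide with the KO arrays, was the highest, and the groups did not overlap. The change was -0.44 (standard error 0.16, adjusted p = 0.0394). The call was lost without BAT control 1 (adjusted p = 0.0528) or without KO array 1 (0.0675), 2 (0.0974) or 3 (0.0874). Among other settings, it was also lost with median centring, without the filter on dim probes and with the methods' t-test after Benjamini-Hochberg adjustment. With spike-in scaling Lep stood at 0.06, while the median of all genes moved to 0.42. In gWAT the controls stood at 0.33, 0.48, 1.47 and 0.92 and the labelled KO arrays at 0.07, 0.21, 0.02 and -0.41. These groups did not overlap either, yet the difference of -0.83 (standard error 0.26) missed the threshold (adjusted p = 0.0563) and passed it without gWAT control 1 (0.0425).

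Apln, encoding apelin, which endothelial cells make as well as adipocytes, varied most between arrays of one group (probe A_51_P209327). The BAT controls read -0.92, 0.20, -1.06 and -2.96 and the KO arrays -1.48, -3.05, -2.85 and -1.0. The gWAT controls read 0.60, -0.36, -0.89 and -1.97 and the labelled KO arrays -0.60, -0.45, -0.99 and 0.07. The groups overlapped in both tissues. The differences of -0.91 in BAT (95% confidence interval -2.50 to 0.68, adjusted p = 0.282) and 0.16 in gWAT (-0.95 to 1.27, adjusted p = 0.851) did not pass the test, and both intervals hold 0 as well as changes of more than 2-fold. In BAT the value rested on single arrays, at -1.50 without control 4 (adjusted p = 0.0497), -0.45 without control 2 and -0.59 without KO array 2. In gWAT the value turned to -0.28 without control 4 and to -0.03 without labelled KO array 4. Within the slide, where control 4 (-1.97) is the lone control, it was 1.47.

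**Figure D2:**
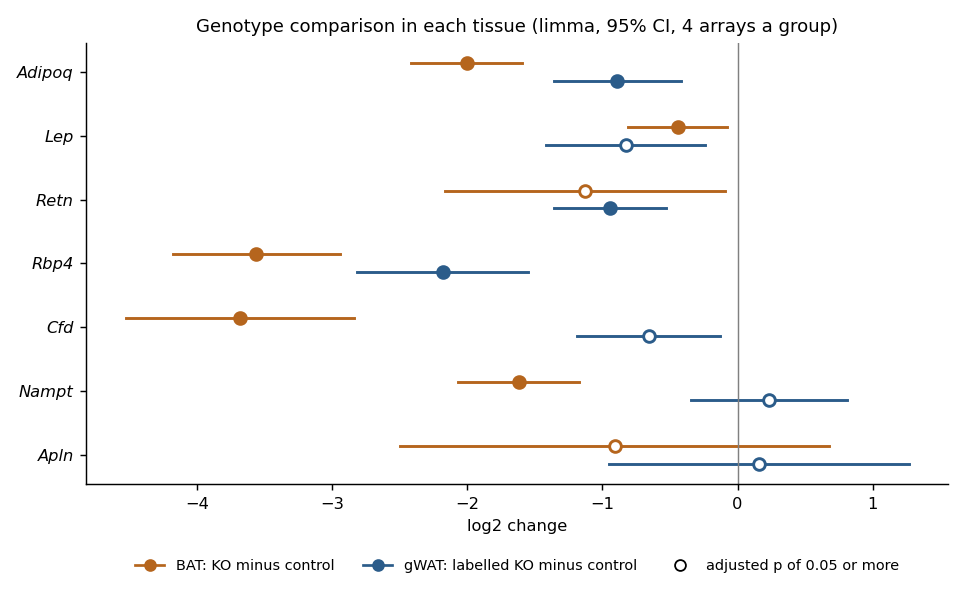
Log2 change of each adipokine between genotypes in BAT and in gWAT, with its 95% confidence interval from limma (4 arrays a group). Open circles did not pass an adjusted p of 0.05. Rbp4 and Cfd lie beyond -3.5 in BAT, whereas in gWAT Rbp4 alone lies beyond -2.

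On the slide that holds both genotypes, with 1 control array against 4, the BAT changes were -1.92 for Adipoq, -3.55 for Rbp4, -4.08 for Cfd, -1.73 for Nampt and -0.90 for Lep. All 5 were called, in a test whose spread comes from the 4 KO arrays alone. Retn stood at -1.62 and Apln turned to 0.86, neither called. In gWAT the values within the slide were -2.34 for Rbp4, -1.29 for Adipoq, -1.24 for Retn, -0.95 for Lep and -0.93 for Cfd, each larger than over all arrays. Apln stood at 1.47 there, beside 0.16 over all arrays. None of the 7 was called there (limma, with 4 lower and 1 higher at an unadjusted p under 0.05, adjusted p = 0.0576 for Rbp4, 0.0938 for Adipoq and 0.104 for Retn), and Nampt turned to -0.30.

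The same settings can be compared for all 7 members in the plot of changes under 8 settings. Adipoq, Rbp4, Cfd and Nampt stayed below 0 and called in BAT under all 25 alternatives tried. Scaling to Actb and Rplp0 gave the largest falls in BAT, such as -4.27 for Cfd and -2.60 for Adipoq, and there the median of all genes was -0.67. Cfd in gWAT was called lower with quantile normalization (-0.66, adjusted p = 0.0272) and with Actb and Rplp0 scaling (-0.72, adjusted p = 0.0252), and so was Lep (-0.85 and -0.89). With median centring, of the gWAT members only Rbp4 was called.

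**Figure D3:**
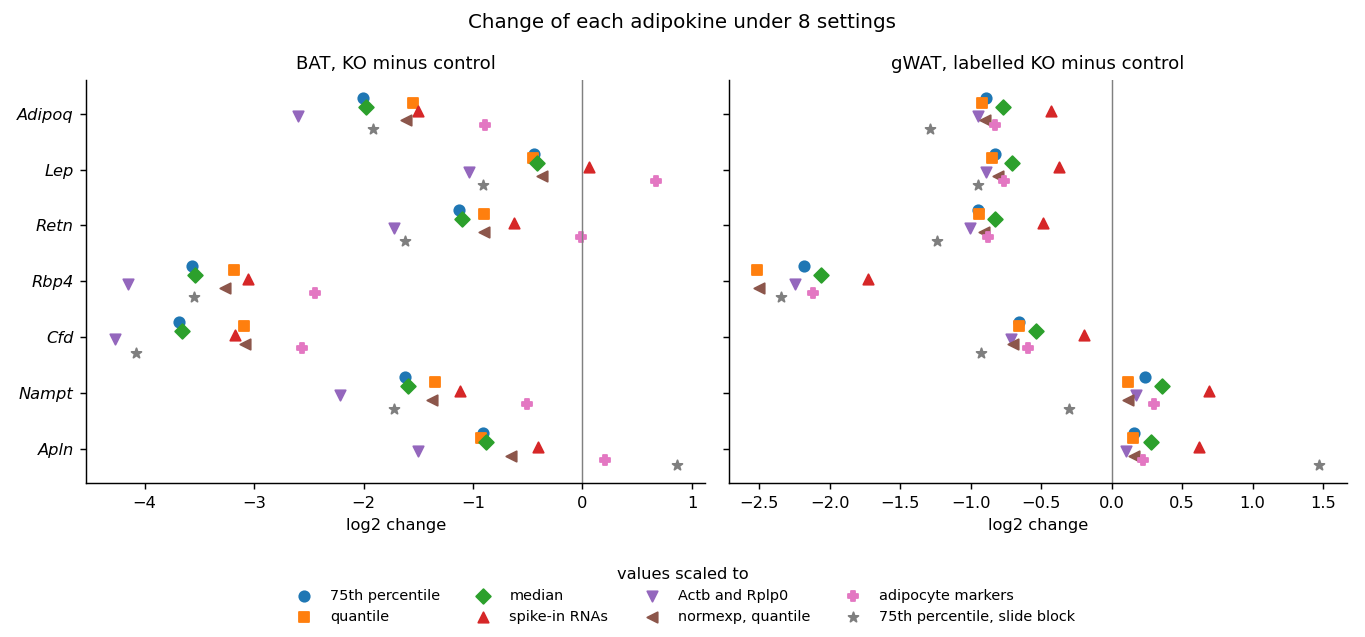
Log2 change of each adipokine between genotypes in BAT and in gWAT under 8 settings, 7 of them scalings and 1 with the slide as a block. Rbp4 and Cfd stay below -2 in BAT under each, Lep crosses 0 in BAT with spike-in RNAs and with the adipocyte markers as reference, and Apln crosses 0 in BAT with the adipocyte markers and with the slide block.

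The genotype change differed between the tissues for 4 of the 7 adipokines. Tested as an interaction over all 16 arrays, the change in gWAT minus that in BAT was 3.02 for Cfd (standard error 0.47, adjusted p = 0.000159), 1.85 for Nampt (adjusted p = 0.000521), 1.38 for Rbp4 (adjusted p = 0.0132) and 1.12 for Adipoq (adjusted p = 0.00519). Cfd, Rbp4 and Adipoq thus lay further below controls in BAT than in gWAT, and Nampt fell in BAT and stood at 0.23 in gWAT. Among all 14820 genes tested, 48.3% were called in this contrast in either direction, so 4 of 7 is near the share of all genes. For Retn (0.18, 95% confidence interval -0.94 to 1.30), Lep (-0.39, -1.07 to 0.30) and Apln (1.07, -0.90 to 3.04) no difference between the tissues passed the test. Cfd was called under all 30 alternatives tried. Adipoq (0.62, adjusted p = 0.0558) and Rbp4 (0.67, adjusted p = 0.112) lost their calls with quantile normalization, and with the slide as a block Adipoq, Rbp4 and Nampt did (0.63, 1.21 and 1.43).

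The depots themselves differ in their adipokines. In controls, gWAT exceeded BAT in Retn 25.7-fold (log2 difference 4.68, standard error 0.37, adjusted p = 1.21e-05), in Lep 2.88-fold, in Cfd 2.43-fold, in Rbp4 2.26-fold and in Adipoq 1.67-fold (adjusted p between 0.00106 and 0.015 for these 4). Nampt alone was higher in BAT, 5.66-fold (log2 difference -2.50, adjusted p = 3.77e-05). Apln did not pass the test (0.53, adjusted p = 0.535). Of all genes, 29.3% were called higher and 35.4% lower in gWAT. Retn had the largest depot difference of the 7, and its levels in the tissues did not overlap, whereas those of Rbp4 did (7.56 on the highest BAT control, 7.54 on the lowest gWAT control). Within the slide that holds 1 BAT and 3 gWAT controls, Retn (4.09), Nampt (-2.78) and Apln (2.74) were called, and Adipoq, Lep, Rbp4 and Cfd kept their sign without being called (0.70, 1.02, 1.14 and 0.80). The spread there comes from the 3 gWAT arrays alone, and the lone BAT array is the one lowest in Apln (-2.96).

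Between KO BAT and labelled KO gWAT the adipokines differed too, and how far this depot difference departs from that in controls is the interaction given above. There gWAT exceeded BAT 29.2-fold in Retn, 19.8-fold in Cfd, 5.89-fold in Rbp4, 3.62-fold in Adipoq, 3.03-fold in Apln and 2.20-fold in Lep. Nampt was still lower in gWAT, but only 1.56-fold (adjusted p = 0.0331). Of all genes, 22.7% were called higher and 23.4% lower in this comparison. All BAT arrays of this genotype were on one slide and all gWAT arrays on another, scanned on another day, so slide, scan day and tissue cannot be told apart. The calls of Nampt and Apln depended on single arrays. Nampt lost its call without BAT KO array 1 (adjusted p = 0.0827) or 4 (0.0837), or without gWAT labelled KO array 2 (0.0821) or 4 (0.0658), and Apln without BAT KO array 2 (0.0509) or 3 (0.0522). Nampt also missed the threshold with median centring (adjusted p = 0.0699), spike-in scaling (0.0772) and Actb and Rplp0 scaling (0.153). This comparison shares its arrays with the genotype comparisons above.

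**Figure D4:**
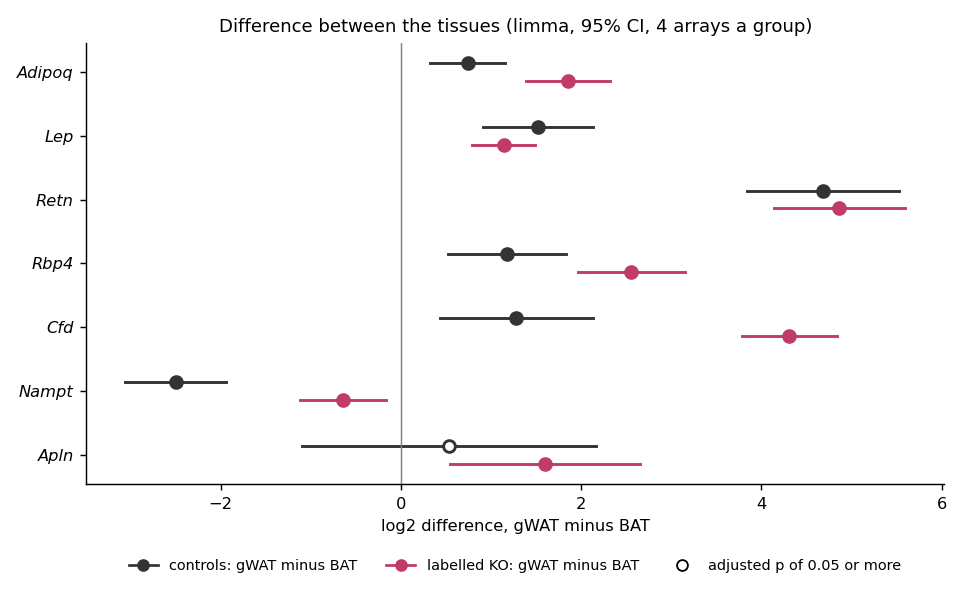
Log2 difference of each adipokine between gWAT and BAT in controls and in the labelled KO arrays, with its 95% confidence interval from limma (4 arrays a group). Retn lies near 4.7 to 4.9 in both, Cfd moves from 1.28 to 4.31, and Nampt is the member below 0.

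The order of the 4 groups was the same for Adipoq, Rbp4 and Cfd at its ends, with gWAT controls highest and KO BAT lowest. For Adipoq the middle groups were close, at 8.19 ± 0.11 (SD, n = 4) in BAT controls and 8.04 ± 0.25 (SD, n = 4) in labelled KO gWAT, and their ranges overlap. For Rbp4, BAT controls (6.97 ± 0.46, SD, n = 4) stood above labelled KO gWAT (5.97 ± 0.43), with ranges that overlap slightly. For Cfd it was the reverse, at 8.18 ± 0.83 against 8.80 ± 0.46, with overlapping ranges. For Retn and Lep, both gWAT groups stood above both BAT groups except that the highest BAT control array of Lep (-0.26) passed the lowest labelled KO gWAT array (-0.41). For Nampt the order ran from BAT controls (5.64 ± 0.28) over KO BAT (4.02 ± 0.33) to both gWAT groups (3.37 ± 0.32 and 3.14 ± 0.47), which overlap. The lowest KO BAT array of Nampt (3.63) lay just below the highest gWAT array (3.68). For Apln the groups overlapped, except that the highest KO BAT array (-1.0) lay just below the lowest labelled KO gWAT array (-0.99).

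Within groups, Retn and Cfd moved together. After each group's mean was subtracted, their levels had a Pearson correlation of 0.87 over the 16 arrays, the highest of the 21 pairs of members. In BAT controls both genes had the same order of arrays, highest on array 2 and lowest on array 3, at 5.24 and 3.47 for Retn and 9.03 and 7.10 for Cfd. Adipoq and Rbp4 followed at 0.53, and Retn and Rbp4 stood at -0.04. Arrays share a scaling factor and a tissue sample, so these correlations describe the arrays.

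By the correlation of levels over the 16 arrays, among 12353 genes, Adipoq was most like Sort1 (0.994), the receptor sortilin, followed by Fzd4 (0.987), a Wnt receptor, and Mogat1 (0.982), a monoacylglycerol acyltransferase. Retn was most like Abhd3 (0.985) and Slc7a10 (0.981), an amino acid transporter of white adipocytes, and Prr5 (0.975). Cfd was most like Slc27a1 (0.970), a fatty acid transporter, Bcat2 (0.957), the mitochondrial branched-chain aminotransferase, and Rxra (0.957). Nampt was most like Mmaa (0.984), Pdpr (0.980) and Suclg2 (0.979), all of mitochondrial metabolism. Rbp4 was most like Myl4 (0.968), Sort1 (0.967) and Negr1 (0.967), and Lep like Arfgap2 (0.962), Ephb6 (0.960) and Epb41l1 (0.948). Apln had the weakest likeness, to Smtn (0.872), a smooth muscle gene, Jam3 (0.766) and Kif26a (0.764). These values mostly follow the 4 groups. After the group means were subtracted, Cfd was most like Trf (0.948), transferrin, Taf9b (0.856) and Cyp2e1 (0.852). Apln was most like Rapgef5 (0.917) and the endothelial genes Pcdh12 (0.855) and Icam2 (0.851). Adipoq was most like Ttpal (0.922), Pck1 (0.902) and Sort1 (0.898). Lep was most like Ptges3l (0.927), Taf13 (0.913) and Mrps14 (0.911), and Nampt like Acad10 (0.923), Ubr2 (0.909) and H6pd (0.902). Retn was most like Tap2 (0.873), Trf (0.846) and Slc7a10 (0.8), and Rbp4 like Ccnd3 (0.877), Ccdc167 (0.853) and Orc6 (0.847). Each is among the highest of 12353 genes, and the level that chance gives was not tested.

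The receptors and partners of the adipokines went both ways in BAT. Of 18 genes listed, 16 could be tested in BAT, and 5 were called higher and 6 lower. These shares are near those of all genes, 27.5% higher and 34.0% lower. Both adiponectin receptors were lower in KO BAT, Adipor2 (-1.10) and Adipor1 (-0.38), and so was Cdh13 (-1.06), the receptor that holds adiponectin on vessels. Gstk1 (-1.56), which helps adiponectin to assemble in the endoplasmic reticulum, was lower too. In contrast, Ero1a, the oxidase that acts in adiponectin secretion, was 9.64-fold higher (3.27, standard error 0.27, adjusted p = 2.57e-05), and Erp44, the chaperone that retains adiponectin, stood at -0.11 (adjusted p = 0.467). In the complement branch, C3, the central complement protein, was lower (-1.76), whereas Cfb, which Cfd cleaves, was higher (1.5). Of the enzymes downstream of Nampt, Nmnat1 was lower (-0.73) and Nmnat3 higher (0.50), and Sirt1, an NAD-dependent deacetylase, stood at 0.02 (adjusted p = 0.868). Nmnat2 was called higher, but its probe was not well above background on any BAT control array and no fold is given. Cap1, a proposed resistin receptor, was higher (0.75). Lepr, Aplnr and Stra6, the receptors for leptin, apelin and retinol-bound Rbp4, did not pass the test in BAT (0.59, 0.43 and 0.62).

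In gWAT, 1 of 18 receptors and partners was called higher and 3 lower, beside 9.99% higher and 7.85% lower over all genes. The receptors Stra6 (-1.65, standard error 0.30, adjusted p = 0.0106) and Lepr (-1.06, standard error 0.19, adjusted p = 0.00953) were lower in the labelled KO arrays. Ero1a was higher (0.97, adjusted p = 0.0312) and Gstk1 lower (-0.78, adjusted p = 0.0482), the same directions as in BAT. The changes of Stra6 (-2.27), Lepr (-1.65), Ero1a (-2.29) and Gstk1 (0.77) each differed between the tissues in the interaction test (adjusted p = 0.000754, 0.00332, 0.000314 and 0.0262). With the slide as a block, none of these 4 was called in gWAT, at -0.99 for Stra6 (adjusted p = 0.253), -0.71 for Lepr (0.227), 0.85 for Ero1a (0.332) and -1.19 for Gstk1 (0.138), and in the interaction Ero1a alone was (-2.48, adjusted p = 0.021). Leaving out single arrays kept Ero1a in gWAT in 2 of 8 fits and Gstk1 in gWAT in 1 of 8, and in BAT Adipor1 in 4 of 8 and Nmnat3 in 1 of 8, with adjusted p up to 0.0755, 0.112, 0.063 and 0.102. Adipor1 in BAT turned to 0.13 with spike-in scaling and Nmnat3 to -0.09 with Actb and Rplp0 scaling.

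**Figure D5:**
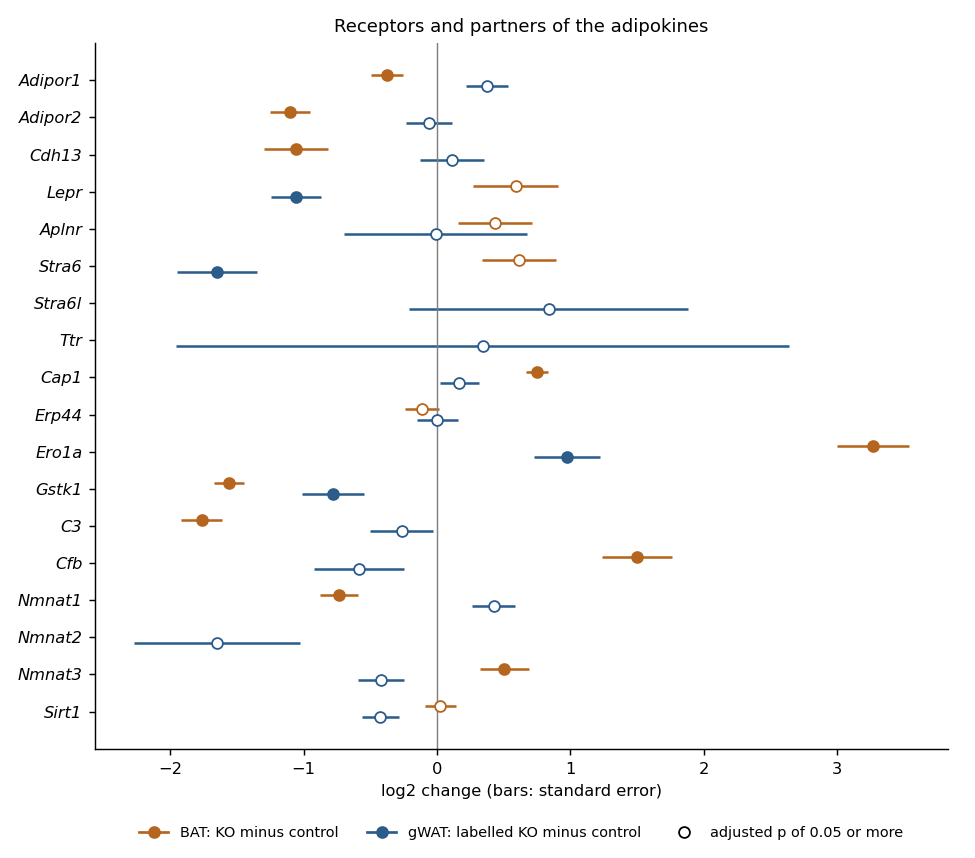
Log2 change between genotypes of the 18 receptors and partners of the adipokines in BAT and in gWAT, with its standard error. Open circles did not pass an adjusted p of 0.05, and genes not tested in BAT (Stra6l, Ttr) or dim on all BAT control arrays (Nmnat2) have no BAT point. Ero1a stands out to the right in BAT at 3.27, and C3 and Gstk1 lie furthest to the left.

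Relatives of adiponectin and resistin went both ways in BAT. Of 9 tested, 5 were called higher and 3 lower, beside 27.5% higher and 34.0% lower over all genes. The rises were led by Retnla (1.29), a resistin-like protein of macrophages, and C1qtnf6 (1.26). The falls were led by C1qtnf12 (-2.19, standard error 0.13, adjusted p = 8.66e-06), known as adipolin, and C1qtnf4 (-0.98). In gWAT 1 of 10 was called, Retnla, which was lower (-1.39, adjusted p = 0.0218), beside 9.99% higher and 7.85% lower over all genes. The direction of Retnla thus differed between the tissues (interaction -2.67, adjusted p = 0.000716). Its gWAT call was lost without gWAT control 2, control 3 or labelled KO array 1 (adjusted p up to 0.0629), and with the slide as a block neither tissue's call held (adjusted p = 0.183 in BAT and 0.138 in gWAT) while the interaction did (0.033).

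Of 13 other adipokines tested in BAT, 7 were called higher and 2 lower, beside 27.5% higher and 34.0% lower over all genes. The chemokine Ccl2 (3.50) had the largest rise, though its groups overlapped, and Azgp1 (-2.55) and Vegfa (-0.70) were the falls. Azgp1 was well above background on 1 of 4 KO BAT arrays. In gWAT, 3 of 12 were lower and the others did not pass the test, beside 9.99% higher and 7.85% lower over all genes. The falls were led by Agt (-2.10), the precursor of angiotensin. Agt changed in the opposite direction in BAT, where it rose by 2.42 (not called with the slide as a block, adjusted p = 0.204), and the interaction was -4.51 (adjusted p = 0.000287).

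Of 11 transcription factors listed for adipocytes, 6 were called lower and 2 higher in BAT, beside 34.0% lower and 27.5% higher over all genes. With the slide as a block, 3 were called lower. Foxo1 (-1.95, adjusted p = 0.000125) and Cebpa (-1.11, adjusted p = 0.000116) had the largest falls, and Cebpd (1.82, adjusted p = 0.00092) and Hif1a (0.33) the rises. The C/EBP-type site in the Lep and Rbp4 windows is not particular to Cebpa, which fell, or to Cebpd, which rose. Its part in the changes was not tested. Hif1a turned to -0.26 with Actb and Rplp0 scaling and kept its call in 2 of 8 fits that left out an array. In gWAT, 1 was called higher and 1 lower, beside 9.99% higher and 7.85% lower over all genes, and 9 did not pass the test. Those called were Srebf1, the lipogenic regulator, which was higher (0.92, adjusted p = 0.0103), and Zfp423, which was lower (-0.67, adjusted p = 0.0348). The latter was called in 3 of 8 fits without an array. Neither was called with the slide as a block (adjusted p = 0.164 and 0.149).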

How the data were processed

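RNA of BAT and gWAT was hybridized to 16 1-colour Agilent arrays (4 per tissue and genotype). The authors deposited scanner files from Feature Extraction 10.7.1.1, whose signal intensity is background-subtracted, and a table of normalized values, each the linear ratio of a probe's intensity to its array's 75th percentile. Here the scanner intensities were divided by that percentile over non-control probes and put on the log2 scale. Irregular and outlier spots were left out and repeated spots averaged. Of 56605 probes, 32994 matched a RefSeq symbol through their accession (91.9% of those with a RefSeq accession). A gene was represented by its brightest probe and tested where at least 1 group had it well above background on every array. Groups were compared with limma 3.58.1 in R 4.3.3, adjusted by Benjamini-Hochberg over all genes tested (threshold 0.05), after a test of the code on simulated data. p-values measure the spread between arrays, whose number limits the precision. Confidence intervals are at 95%.

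Promoters are RefSeq windows on GRCm38.p6. Probe coordinates are not given because the array design uses another build. The labels give 100 ng of RNA per array. The named genes are all members, all tested receptors and partners past the threshold, and of the other lists those with the 2 largest rises and falls in each genotype comparison, and for likeness the 3 genes most correlated with a member. One gene that this rule names is not reported here. The members, lists and tests were chosen with earlier results of these data known. Alternatives to the scaling, filter, probe choice, slide, pairing and test were run, and each array was left out in turn.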

Additional observations from a re-analysis of the deposited data

Results flagged for a closer look

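Among the 28 sets of 4 arrays that the 7 adipokines give, chance would set apart about 1 in 20, and 1 was set apart. Leptin mRNA (Lep) on BAT control array 4 lay away from the other 3 controls by 0.834 of the range of that group (Dixon's test). Without that array the BAT change of Lep was -0.29, the smallest of the fits that left out an array.

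The genotype change differed between BAT and gWAT, by the interaction test in limma, for Cfd (3.02), Nampt (1.85), Rbp4 (1.38) and Adipoq (1.12), with the lower value in BAT each time. The direction in gWAT rests on labels that Pgam1 goes against. No explanation of these differences was tested.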

How the results depend on the processing

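For the 7 adipokines, 793 of the alternative values kept direction and side of the threshold, 53 lost the call, 21 gained it and 15 changed sign. In BAT, Lep changed sign with spike-in scaling (0.0615) and relative to the adipocyte markers (0.67), and Apln relative to those markers (0.21) and within the slide or with the slide as a block (0.86). In gWAT, Nampt changed sign within the slide or with the slide block (-0.30) and Apln without control 4 (-0.28) or labelled KO array 4 (-0.03), within a range of -0.28 to 0.578 when any array was left out. The depot difference of Apln in controls was -0.0584 without BAT control 4 (up to 0.9945 without another array). In the interaction, Retn changed sign with quantile normalization (-0.0425), normexp with quantile (-0.0036), without BAT control 2 (-0.0956) and without KO BAT array 3 (-0.03), within a range up to 0.4948, and Lep with Actb and Rplp0 scaling (0.15). The cause was not tested. Of the 7 members, 3 were called in gWAT, but 5 with quantile normalization, with normexp and quantile, with Actb and Rplp0 scaling and with the methods' t-test unadjusted, 1 with median centring, and 0 within the slide or with the slide block, where a single control array is left (limma, with 1 higher and 4 lower at an unadjusted p under 0.05 in both). Genes called in gWAT were 2525, against 1384 with median centring, 5766 with spike-in scaling, 1138 without the filter on dim probes, 184 with the slide block, 121 within the slide, 1618 with the methods' t-test after Benjamini-Hochberg and 4673 unadjusted, and 4040 with all 16 arrays in 1 fit. Leaving out 1 gWAT array gave 1143 (without labelled KO array 3) to 3237 (without labelled KO array 4), and the count also fell by more than 1.5 times without control 2 (1188), control 3 (1582), labelled KO array 1 (1168) or 2 (1285). In the depot comparison of controls, 6 members were called, against 3 within the slide or with the slide block, and 9254 genes against 4738 within the slide. In the interaction, 4 members were called, against 2 with quantile normalization and 1 with the slide block, and 7162 genes against 3265 with the slide block. Scaling shifted all genes: the share of calls that were higher was 44.8% in BAT, 78.0% with spike-in scaling, 17.7% with Actb and Rplp0 and 94.9% relative to the adipocyte markers, and in gWAT 56.0%, 95.6% with spike-in scaling, 71.0% with median centring and 77.7% relative to those markers. The labels do not say whether the replicate numbers pair the arrays. Between the genotypes, correlations of same-numbered deviations ran from -0.16 to 0.55 in gWAT and from 0.01 to 0.19 in BAT. Between the depots they ran from -0.03 to 0.18 in controls, where numbers 1 to 3 each correlated best with their own number. In the arrays labelled KO they ran from -0.14 to 0.27. There number 1 (0.121, against at most 0.118 with another number) and number 3 (0.266 against -0.058) did so too. These values do not settle whether same-numbered arrays of the tissues share an animal, and the main tests treat all arrays as independent. No member's call changed in the depot comparisons when the replicate number was used as a block. With the number as a block, 1087 genes were called in gWAT, and of the members Retn gained its call in BAT (adjusted p = 0.0481) and lost it in gWAT (0.0543). The slide block could not be fitted for the arrays labelled Adipo-Pgam1 KO, where each tissue has its own slide.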
